A study of Mus musculus with 33 samples.

Results

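Hox genes encode homeodomain transcription factors that give cells along the head-to-tail axis their regional identity. In mammals they lie in 4 clusters, Hoxa to Hoxd, and are numbered by paralogue group: low numbers are switched on early and act in the hindbrain, neck and pharyngeal arches, and high numbers act in the trunk, limbs and tail. The front of the tongue grows from the first pharyngeal arch, whose neural crest lacks Hox expression, the root of the tongue comes from arches that express Hox genes, and tongue muscle comes from occipital somites. Ribs belong to the thoracic axis, where Hox genes of the middle groups pattern the skeleton.

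All rows for the 39 Hox genes of the 4 clusters were taken by name (Hox, a cluster letter and a number), without antisense transcripts. The costal table held all 39 among 25965 listed genes. Each tongue table held 28 rows among 27825, because 5 rows each spanned several neighbouring genes and 11 genes had no row of their own. By their coordinates on GRCm38, the tongue row named Hoxa2 (chr6:52162351-52213339, minus strand) spanned Hoxa2 to Hoxa6. The tongue row named Hoxd3 (chr2:74711929-74748274, plus strand) spanned Hoxd3 and Hoxd4, and that named Hoxd11 (chr2:74679392-74695106) spanned Hoxd10 and Hoxd11. The row named Hoxb8 (chr11:96281905-96290336) spanned Hoxb7 and Hoxb8, and that named Hoxc10 (chr15:102966796-103017429) spanned Hoxc5, Hoxc6, Hoxc8, Hoxc9 and Hoxc10. A value on such a row cannot be assigned to 1 of its genes.

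**Figure D1:**
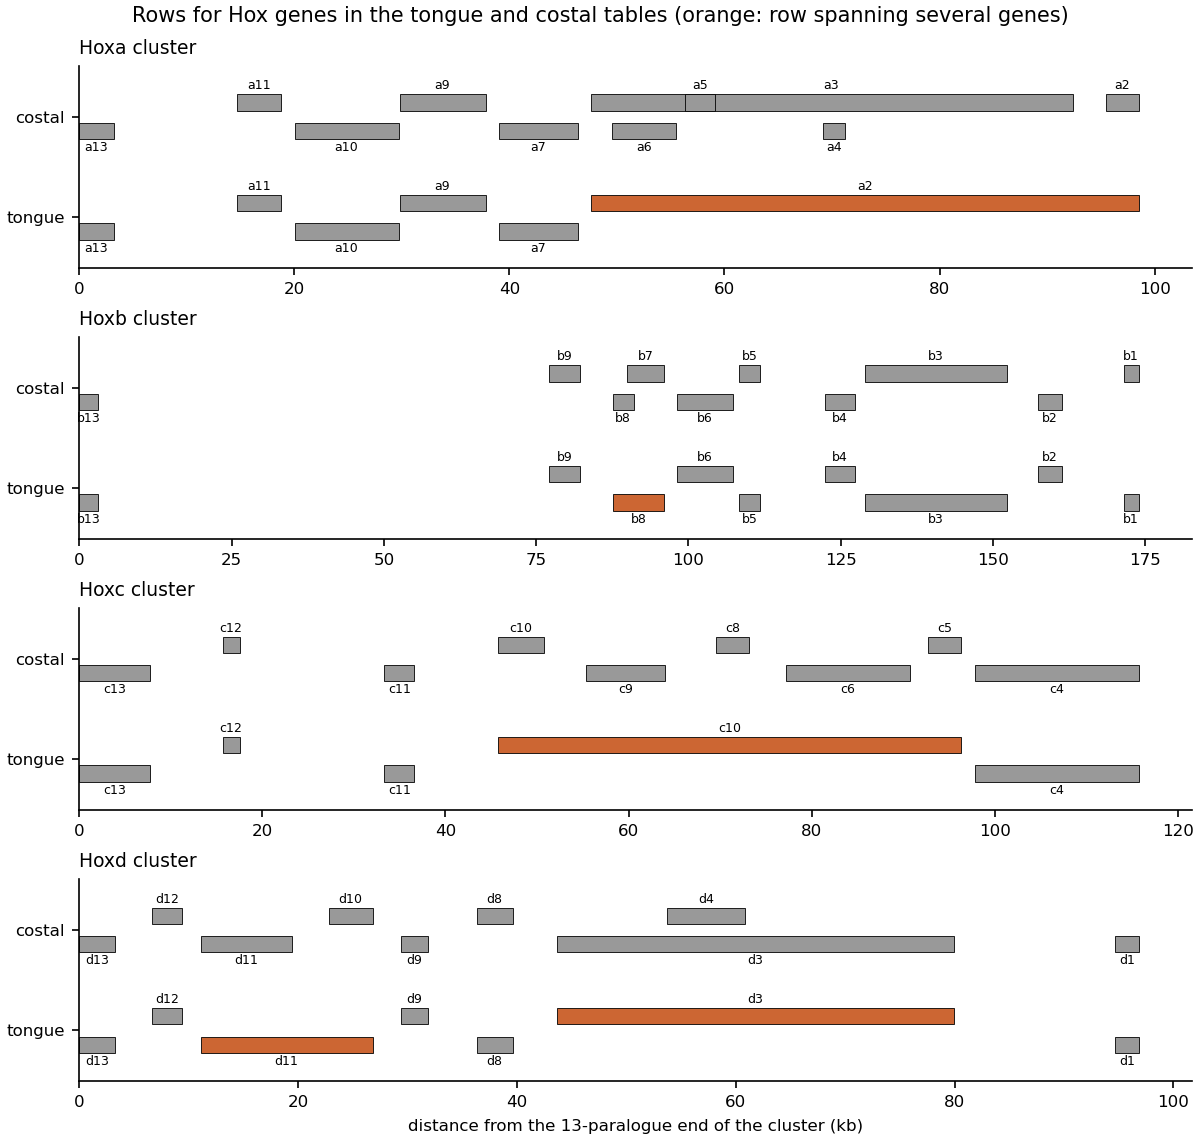
Rows for all but 1 of the Hox genes in the tongue and costal tables along each cluster, drawn to scale in kb from the end that holds group 13. Orange marks the 5 tongue rows that span several genes, which together cover 16 genes; the costal table lists each of these genes on a row of its own.

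The study profiled RNA from mouse tongue and rib cartilage cells in which Zac1 (gene symbol Plagl1), an imprinted zinc finger transcription factor normally read from the paternal allele, was expressed from both alleles or as in the wild type. Whole tongues were taken before birth (embryonic day E13.5), at birth (P0) and on postnatal day 20 (P20), with 3 biological replicates of each genotype at each stage. The biallelic tongues came from mice that the labels call Zac1o knockout and describe as expressing the gene biallelically, and the other tongues from wild type mice. Tongue RNA was extracted with an AllPrep kit at E13.5 and with TRIsure at P0 and P20, so the kit and the change from E13.5 to P0 cannot be told apart; 300 ng of each was depleted of ribosomal RNA and made into strand-specific libraries. Costal cells were sorted as Cd24a+ Cd200+ pre-hypertrophic chondrocytes from digested ribcages at E18.5, about 2000 cells a library, and polyadenylated RNA was amplified by SMART-seq2. They came from 6 biallelic animals (Zac1LOM, numbered 1 to 6) and 5 wild type animals (Zac1LMOI, 7 to 11).

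Plagl1 was higher in the biallelic group in each table, in reads-per-million values (RPM, mean ± SD). The E13.5 level was 203 ± 62.9 RPM against 87.6 ± 19.7 RPM (n = 3 each), the P0 level 473 ± 37.8 against 231 ± 11 RPM and the P20 level 64.9 ± 13.2 against 26.2 ± 3.83 RPM. Costal cells held 27.9 ± 11.5 RPM (n = 6) against 8.94 ± 4.63 RPM (n = 5). Tongue libraries held 36832710 to 92249076 reads, biallelic costal libraries 7221012 to 15689558 and wild type costal libraries 2938462 to 7887304. Some libraries stood apart on the first principal component of their table: biallelic replicate 3 at E13.5 (47.5, the others −19.9 to −1.59), biallelic replicate 3 at P20 (39.8, the others −22.4 to 10.1), wild type replicate 2 and biallelic replicate 1 at P0 (29.0 and 28.0, the others −20.5 to −7.05), and wild type costal animals 7, 8 and 9 (64.3 to 89.8, the others −52.2 to 17.2). Muscle and epithelial markers marked the tissue as tongue, with summed levels of 10 muscle genes at a wild type median of 466, 11200 and 9590 RPM over the 3 stages and of 8 epithelial genes at 694, 3020 and 8260 RPM. In costal cells the 15 listed chondrocyte markers summed to 246 to 1050 RPM, below the 7 listed macrophage and other leukocyte markers (4350 to 6460 RPM), and the neutrophil and myeloid list summed to 272 to 2200 RPM in wild type and 207 to 408 RPM in biallelic animals. The 5 listed prehypertrophic or hypertrophic chondrocyte markers summed to 36.2 to 76 RPM in costal cells. In tongue they summed to 88.6 to 141 RPM at E13.5, 33.2 to 44.3 RPM at P0 and 61.3 to 76.9 RPM at P20. The part of these markers in the Hox values was not tested.

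The stretch of 100 bases before the RefSeq start of 5 of these genes is printed (GRCm38.p6): Hoxd8 and Hoxd4, because their rows rose in tongue after E13.5, Hoxa2 and Hoxb4, because their rows fell, and Hoxa5, because it had the most costal reads. Each is written 5′ to 3′ on the gene's own strand, with capitals on any CCAAT box (CCAAT, or ATTGG on the other strand) or TATA box (TATAAA, or TTTATA on the other strand). The RefSeq starts of Hoxb4 and Hoxa2 lie inside the spans of the rows of those names, and that of Hoxd4 lies inside the Hoxd3 row. The windows of these genes are therefore not the stretches before the rows that rose or fell.
Hoxd8, chr2:74704515-74704614: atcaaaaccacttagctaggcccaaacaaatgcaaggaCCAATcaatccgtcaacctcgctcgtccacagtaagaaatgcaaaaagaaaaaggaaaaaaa
Hoxd4, chr2:74721878-74721977: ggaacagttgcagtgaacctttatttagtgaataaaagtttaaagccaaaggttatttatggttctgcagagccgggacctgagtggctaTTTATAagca
Hoxa2, chr6:52164832-52164931: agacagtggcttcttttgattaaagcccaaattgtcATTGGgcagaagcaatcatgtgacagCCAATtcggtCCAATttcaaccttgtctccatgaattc
Hoxb4, chr11:96318167-96318266: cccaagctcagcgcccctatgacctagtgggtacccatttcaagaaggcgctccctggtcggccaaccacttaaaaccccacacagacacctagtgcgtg
Hoxa5, chr6:52204588-52204687: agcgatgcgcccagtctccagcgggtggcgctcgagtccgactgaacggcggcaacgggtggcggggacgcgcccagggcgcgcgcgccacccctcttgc
The Hoxd8 window held 1 CCAAT box, starting 62 bases before the gene, and the Hoxa2 window held 3. The Hoxd4 window held 1 TATA box on the other strand, 10 bases before the start, while the Hoxb4 and Hoxa5 windows held neither motif. Of 32851 RefSeq windows of this length, 18.9% held CCAAT on either strand and 5.56% held TATAAA. Among 24 windows of 22 Hox genes, 8 held CCAAT and 1 held TATAAA. The GC box (GGGCGG) was found in 24.7% of all windows and 4 Hox windows, and the PBX-HOX motif (TGATNNAT) in 2.68% and 2. The matches in the printed windows do not overlap, and a match is a description of letters.

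Hox genes were read at low levels throughout. Of the 28 tongue rows, 21 had a read in any E13.5 library, 22 in any P0 library and 17 in any P20 library, while 22 of 39 genes did in costal cells. The highest count on any Hox row in 1 library was 127 reads in E13.5 tongue, 347 in P0 tongue, 263 in P20 tongue and 23 in costal cells. In the same order, 8, 8, 5 and 5 rows had 10 or more reads in any library. A count of 0 allows up to 3 reads, which is 0.0325 to 0.0814 RPM in a tongue library and 0.1912 to 1.0209 RPM in a costal library; such limits, and the intervals on reads given below, cover counting error only. Hoxd13, Hoxd12, Hoxa13, Hoxb13 and Hoxb1 had no read in any of the 18 tongue libraries, and 3 of these 5 belong to group 13, which acts at the tail end of the axis. The mean reached 1 RPM in either genotype group on only 2 rows of the E13.5 table (Hoxa2 and Hoxd3), 2 of the P0 table (Hoxd3 and Hoxd8), 3 of the P20 table (Hoxc13, Hoxd3 and Hoxd8) and none of the costal table. The spans read as follows: Hoxd8 lies at chr2:74704615-74707933, Hoxd9 at chr2:74697680-74700208, Hoxc13 at chr15:102921103-102928814, Hoxb2 at chr11:96351632-96355689, Hoxb3 at chr11:96323326-96346685 and Hoxb4 at chr11:96316684-96321638.

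The tongue's Hox makeup changed between E13.5 and P0. In both genotypes the Hoxd3 row, Hoxd8, Hoxd9 and Hoxc13 rose, and Hoxb2, Hoxb3 and Hoxb4 fell. From P0 to P20 Hoxc13 rose further. Hoxd8 was called lower in wild type only, a call lost on leaving out some single libraries, and the genotypes were not shown to differ in this change. Stages were compared with limma on the deposited log2 RPM of all 18 tongue libraries, with Benjamini-Hochberg adjusted p over all genes tested and a threshold of 0.05. Among 13663 genes that reached 1 RPM in 3 or more libraries, 4 Hox rows could be tested. From E13.5 to P0, 3 of them rose and none fell in wild type, against 37.9% of all genes tested called higher and 39.9% called lower. In biallelic tongue 3 rose and 1 fell, against 39.7% and 37.6%. Shares this large over all genes mean that a call on a Hox row is common for its contrast. Of the 4 rows only the Hoxd3 row reached 1 RPM at all stages. Hoxd8 and Hoxc13 reached it only after E13.5, and the Hoxa2 row only at E13.5. The direction of their calls was therefore partly fixed by the limit, and these counts are no result about Hox genes. In whole tissue, fewer cells of a type and less RNA per cell cannot be told apart.

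The Hoxd3 row, whose genes pattern the neck vertebrae and hindbrain, was the Hox row with the most reads over the 18 tongue libraries. At E13.5 it stood at 0.932, 1.54 and 1.01 RPM in the 3 wild type libraries and at 1.71, 1.47 and 1.25 RPM in the 3 biallelic libraries. At P0 the values were 3.04, 2.23 and 3.76 RPM in wild type and 2.07, 2.74 and 3.04 RPM in biallelic tongue. At P20 they were 4.10, 4.48 and 4.74 RPM in wild type and 4.41, 4.65 and 4.64 RPM in biallelic tongue. Every P0 library lay above every E13.5 library, and every P20 library above every P0 library. From E13.5 to P0 the log2 fold change was 1.37 (SE 0.23) in wild type (limma adjusted p = 4.95e-05) and 0.82 in biallelic tongue (adjusted p = 0.00443). Between P0 and P20 it was 0.82 in biallelic tongue (limma adjusted p = 0.0091). In wild type it was 0.59 (limma adjusted p = 0.0485), and this call was lost when each library was centred on its median gene (0.37, adjusted p = 0.188), with the replicate number as a block (0.59, adjusted p = 0.0601), at the lower limit of 0.1 RPM used below (0.59, adjusted p = 0.0582) and without any 1 of P0 wild type 1 or 2 or P20 wild type 1, 2 or 3 (0.39 to 0.65, adjusted p 0.072 to 0.222). Without P0 wild type 3 it was 0.77 (limma adjusted p = 0.0227). The antisense transcript Hoxd3os1 overlaps both this row and Hoxd8, and no source used here says how the authors' counting used strand, so reads of sense and antisense cannot be told apart.

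Hoxd8, a gene of the trunk-patterning middle groups, lies next to the Hoxd3 row. At E13.5 it measured 0.311, 0.572 and 0.592 RPM in wild type and 0.601, 0.407 and 0.604 RPM in biallelic tongue. At P0 it measured 1.75, 1.61 and 1.77 RPM in wild type and 1.63, 1.59 and 1.38 RPM in biallelic tongue. At P20 it measured 1.05, 1.06 and 0.661 RPM in wild type and 0.944, 0.990 and 1.66 RPM in biallelic tongue. The P0 libraries were the highest, except for biallelic replicate 3 at P20, which lay among them. The rise from E13.5 to P0 was 1.86 (SE 0.32) on the log2 scale in wild type (limma adjusted p = 5.12e-05) and 1.53 in biallelic tongue (adjusted p = 3.34e-04). Reads summed over each group gave ratios of 3.39 (95% counting interval 2.62 to 4.43) and 2.78 (2.13 to 3.66). The log2 fold change to P20 was −0.92 in wild type (limma adjusted p = 0.0256) and −0.40 in biallelic tongue (adjusted p = 0.311; −0.66 with adjusted p = 0.122 without replicate 3, the library that stood apart at P20). The wild type fall was lost without P0 wild type 1 (−0.90, adjusted p = 0.0655), P0 wild type 3 (−0.90, adjusted p = 0.0606) or P20 wild type 3 (−0.69, adjusted p = 0.123).

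Hoxd9, which acts in limb and trunk, had 0 reads in all 6 libraries at E13.5. At P0 it had 19, 30 and 21 reads in wild type and 10, 21 and 27 in biallelic tongue. At P20 it had 9, 20 and 11 reads in wild type and 13, 12 and 14 in biallelic tongue. The stages E13.5 and P0 did not overlap, and the summed reads put P0 at least 14.4-fold higher in wild type and at least 13-fold higher in biallelic tongue, taking 3 reads over the group as the floor for E13.5. Hoxd9 did not reach 1 RPM and was tested among 17243 genes at 0.1 RPM or more, a limit chosen after seeing the data. There the difference had a limma adjusted p of 2.07e-07 in wild type and 4.27e-07 in biallelic tongue. The change from P0 to P20 did not pass in either genotype (log2 fold change −0.29 in both, limma adjusted p = 0.6114 and 0.6141).

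Hoxc13, which is needed for hair, nails and the filiform papillae of the tongue surface, went from the floor to the highest level per length of any Hox row. At E13.5 it had 0 reads in the 3 wild type libraries and 0, 1 and 2 in the biallelic libraries. At P0 it measured 1.02, 0.480 and 0.889 RPM in wild type (63, 34 and 82 reads) and 0.455, 1.11 and 0.984 RPM in biallelic tongue (22, 74 and 74 reads). At P20 it measured 3.10, 2.59 and 5.05 RPM in wild type (142, 151 and 229 reads) and 4.14, 3.75 and 1.38 RPM in biallelic tongue (237, 212 and 73 reads). The stages did not overlap within either genotype, and the lowest P20 library was biallelic replicate 3. Summed reads put P0 at least 36.7-fold above E13.5 in wild type, with a ratio of 38.1 (95% counting interval 12.8 to 187) in biallelic tongue. For P20 over P0 the ratio was 4.38 (3.69 to 5.22) in wild type and 3.5 (2.94 to 4.19) in biallelic tongue. The limma adjusted p was 6.14e-08 and 1.96e-07 for E13.5 to P0, and 0.00217 and 0.00748 for P0 to P20, in wild type and biallelic tongue. The wild type E13.5 values in this test were all at the deposited floor, so their spread was only that of library depth. Summed epithelial markers rose over the same stages, from a wild type median of 694 to 3020 and 8260 RPM, with 5500 to 9940 RPM across the biallelic P20 libraries; their part in the Hoxc13 change was not tested.

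On the tested Hoxa and Hoxb rows the values went the other way. Of these, the Hoxa2 row, Hoxb2 and Hoxb4 reached the limit of their test only at E13.5, so a fall was partly fixed by that limit. Untested rows of these clusters had at most 10 reads in any library and are not covered. The Hoxa2 row, named for the gene that gives the second pharyngeal arch its identity, stood at 1.19, 2.38 and 0.423 RPM in wild type and 1.25, 3.45 and 1.06 RPM in biallelic tongue at E13.5. At P0 it stood at 0.260, 0.438 and 0.293 RPM in wild type and 0.145, 0.210 and 0.133 RPM in biallelic tongue. At P20 it stood at 0.262, 0.137 and 0.0441 RPM in wild type and 0, 0.159 and 0.453 RPM in biallelic tongue. The E13.5 libraries spanned a wide range, and the lowest of them, wild type 3, lay below the highest P0 library. In biallelic tongue the log2 fold change to P0 was −3.38 (limma adjusted p = 0.00462). In wild type it was −1.72 (SE 0.97; limma adjusted p = 0.1145), and it passed with the reads weighted by voom (−1.74, adjusted p = 0.0485) and on log2(RPM + 1) values (−0.72, adjusted p = 0.0227). Summed reads at P0 were 4.19-fold (95% counting interval 3.19 to 5.56) lower in wild type and 11.1-fold (7.62 to 16.7) lower in biallelic tongue. Antisense genes, among them Hoxaas2 and Hoxaas3, overlap this row, so its sense and antisense reads cannot be told apart.

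The other anterior genes were tested at the 0.1 RPM limit, where Hoxd9, Hoxc10, Hoxb2, Hoxb3 and Hoxb4 were added. From E13.5 to P0, 1 of these 5 rose and 3 fell in each genotype, against 36.4% and 33.9% of all 17243 genes in wild type and 37.0% and 32.2% in biallelic tongue. Hoxd9 reached 0.1 RPM only after E13.5, and Hoxb2 and Hoxb4 only at E13.5. The direction of their calls was therefore partly fixed by the limit, and these counts are no result about Hox genes. Hoxb2, which acts in the hindbrain and facial nerve, had 6, 58 and 16 reads in wild type and 37, 27 and 56 in biallelic tongue at E13.5. At P0 it had 3, 3 and 7 reads in wild type and 0, 2 and 3 in biallelic tongue. Apart from wild type 1, each E13.5 library had more reads than any P0 library. In RPM, which allows for depth, the stages did not overlap, at 0.155 to 1.17 RPM against 0 to 0.0759 RPM over both genotypes. Summed reads were 9.99-fold (95% counting interval 5.52 to 19.6) lower at P0 in wild type and 35.6-fold (14.9 to 112) lower in biallelic tongue, with log2 fold changes of −2.85 (limma adjusted p = 0.000404) and −5.00 (adjusted p = 9.56e-07).

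Hoxb3, a hindbrain and neck gene, had 10, 36 and 25 reads in wild type and 17, 20 and 33 in biallelic tongue at E13.5. At P0 it had 5, 2 and 16 reads in wild type and 1, 7 and 2 in biallelic tongue. The 2 stages did not overlap in either genotype, at 0.259 to 0.687 RPM against 0.0207 to 0.173 RPM over both genotypes. The log2 fold change was −2.63 in wild type (limma adjusted p = 0.0172) and −3.77 in biallelic tongue (adjusted p = 0.00153). The wild type call was lost without E13.5 wild type 2 (−2.33, adjusted p = 0.059) or without P0 wild type 2, a library that stood apart (−1.94, adjusted p = 0.0944).

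Hoxb4, known in blood stem cells and neck vertebrae, had 4, 8 and 4 reads in wild type and 12, 14 and 23 in biallelic tongue at E13.5, and 1 to 3 reads in each P0 library. Its log2 fold change was −1.63 in wild type (limma adjusted p = 0.0125) and −4.00 in biallelic tongue (adjusted p = 4.26e-06). The Hoxc10 row, with 3 to 13 reads in each library at E13.5 and 5 to 13 at P0, did not pass in either genotype (limma adjusted p = 0.185 and 0.974).

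The other 13 tongue rows with reads, Hoxd11, Hoxd1, Hoxa7, Hoxa9, Hoxa10, Hoxa11, Hoxb9, Hoxb8, Hoxb6, Hoxb5, Hoxc12, Hoxc11 and Hoxc4, had at most 10 reads in any library and were not tested. Among them the Hoxb8 row had reads in all 12 libraries of P0 and P20, with at most 7. Hoxb6, of a thoracic group, had 2, 3 and 10 reads in wild type P0 tongue and none in the biallelic P0 libraries or in wild type at E13.5, while all 7 of its E13.5 reads lay in 1 biallelic library.

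From P0 to P20, of the 4 rows at 1 RPM, 2 rose (Hoxc13 and the Hoxd3 row) and 1 fell (Hoxd8) in wild type, against 31.7% and 14.9% of all genes tested, and 2 rose in biallelic tongue, against 29.9% and 17.3%. Hoxd8 reached 1 RPM in every library only at P0, and Hoxc13 only at P20, so the limit partly fixed the direction of their calls here too. Of these 5 further rows, only Hoxb2 passed, in wild type (0 reads in the 3 P20 libraries; limma adjusted p = 0.0442), and that call was lost without any 1 of the 6 wild type libraries (adjusted p 0.0603 to 0.135). The background at this limit was 26.8% higher and 14.0% lower in wild type and 25.2% and 15.4% in biallelic tongue. Centring each library on its median gene turned the split of all wild type calls from 4332 higher and 2034 lower to 2794 and 3165, since the median gene moved by 0.22 on the log2 scale; no called Hox row changed direction.

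Within this set of genes the antisense transcript Hoxb3os (chr11:96345481-96354691, minus strand) overlaps Hoxb2 and Hoxb3 on the opposite strand. It had 0, 39 and 24 reads in wild type and 22, 25 and 24 in biallelic tongue at E13.5, and 3 to 14 reads in each P0 library. Hoxb2 and Hoxb3os both had reads in 5 of the 6 E13.5 libraries, 5 of the 6 P0 libraries and 1 of the 6 P20 libraries. Only Hoxb2 had reads in 1 E13.5 library, and only Hoxb3os in 1 P0 library and 4 P20 libraries. Reads of the overlapping genes cannot be told apart without the strand setting.

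**Figure D2:**
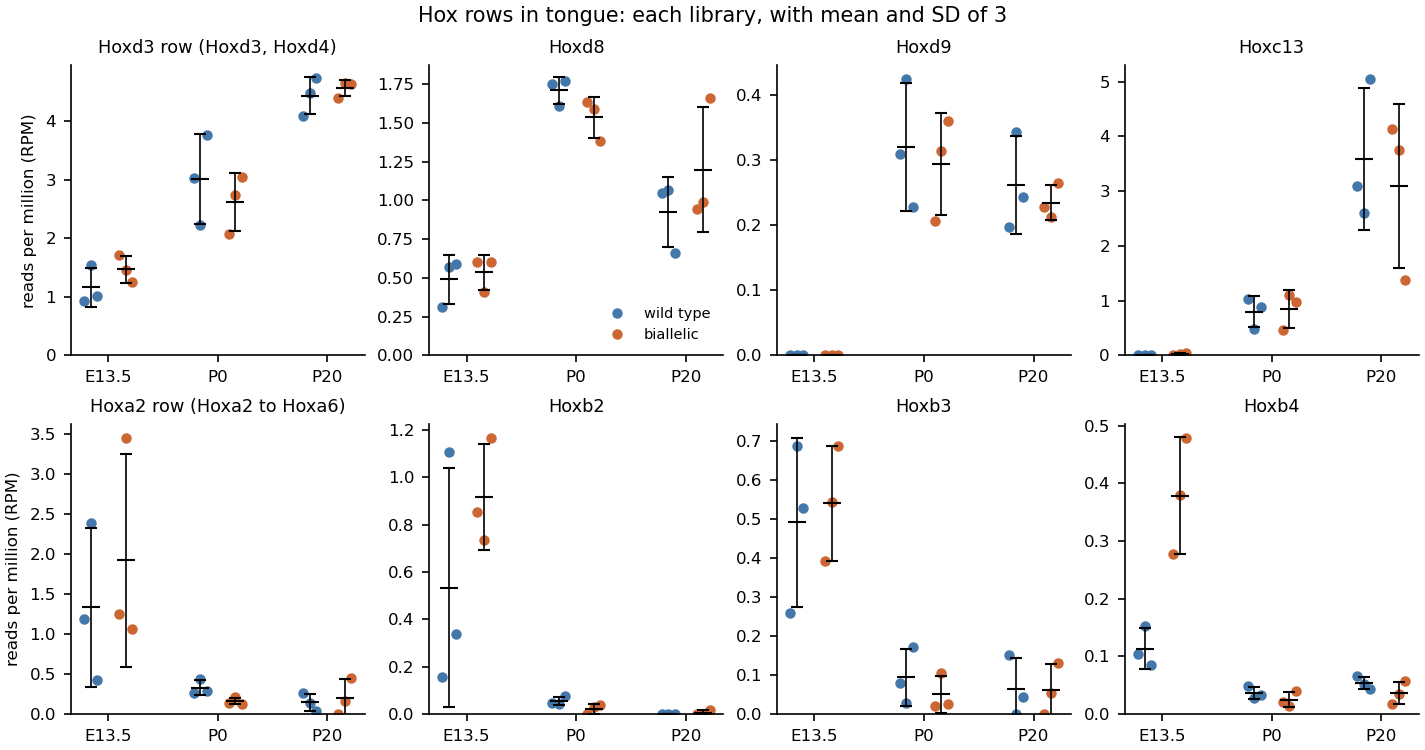
RPM of 8 Hox rows in every tongue library by stage (points; blue wild type, orange biallelic), with the mean and SD of 3 libraries in black; each panel has its own linear axis from 0. The Hoxd3 row, Hoxd8, Hoxd9 and Hoxc13 (upper panels) were higher at P0 than at E13.5, and the Hoxa2 row, Hoxb2, Hoxb3 and Hoxb4 (lower panels) were lower in most libraries.

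RPM do not correct for length, so levels of different genes were compared per kb of exon. At E13.5 the wild type order was Hoxd8 (0.179 ± 0.0572 RPM per kb, SD, n = 3), the Hoxd3 row (0.172 ± 0.0493), Hoxb2 (0.153 ± 0.145), Hoxb3 (0.116 ± 0.0509), the Hoxa2 row (0.110 ± 0.0815) and Hoxb4 (0.0443 ± 0.0137). Neighbours in that order differed by less than the larger of their SDs. At P0 the wild type order was Hoxd8 (0.623 ± 0.0315 RPM per kb), the Hoxd3 row (0.446 ± 0.113), Hoxc13 (0.324 ± 0.115) and Hoxd9 (0.150 ± 0.0461). The Hoxd3 row and Hoxc13 differed by little more than their SD there. At P20 Hoxc13 led in wild type (1.45 ± 0.527 RPM per kb), followed by the Hoxd3 row (0.658 ± 0.0476), Hoxd8 (0.337 ± 0.0830) and Hoxd9 (0.122 ± 0.0352), and these steps were larger than the SDs.

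Summed over all Hox rows, the wild type level was 4.70 ± 2.02, 6.71 ± 1.07 and 9.77 ± 1.11 RPM from the earliest to the latest stage (mean ± SD, n = 3). In biallelic tongue it was 6.44 ± 1.19, 5.86 ± 0.987 and 9.67 ± 0.608 RPM. The P20 libraries, at 8.99 to 11 RPM, all lay above the P0 libraries, at 4.74 to 7.71 RPM, while these overlapped the E13.5 libraries (3.47 to 7.79 RPM). These sums rest on 139 to 711 Hox reads a library, and reads on listed genes made up 34.87 to 36.89%, 32.13 to 33.65% and 36.65 to 37.64% of all reads in those stages.

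The makeup by paralogue group was set out as the share of Hox reads on groups 6 to 13, leaving out the Hoxa2 and Hoxc10 rows, which hold genes of both sides. In stage order it was 20.9 ± 3.18%, 49.3 ± 5.06% and 51.6 ± 3.80% in wild type tongue (mean ± SD, n = 3), and 18.8 ± 4.11%, 50.8 ± 2.91% and 49.6 ± 6.89% in biallelic tongue. The highest E13.5 library, at 23.5%, lay below the lowest P0 or P20 library, at 41.9%. In RPM the wild type level of groups 1 to 5 was 2.52 ± 1.10, 3.22 ± 0.878 and 4.56 ± 0.255 in stage order. That of groups 6 to 8 was 0.580, 1.83 and 0.998 RPM, and that of groups 9 to 13 was 0.0543, 1.23 and 3.94 RPM. Groups 1 to 5 consisted mostly of the Hoxd3 row after E13.5, groups 6 to 8 of Hoxd8, and groups 9 to 13 of Hoxd9 and Hoxc13, so the shares restate those rows.

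By cluster, E13.5 tongue drew most of its Hox reads from Hoxa, Hoxb and Hoxd, and later tongue from Hoxd and Hoxc. In wild type at E13.5 the mean share was 30.6% for Hoxa, 24.9% for Hoxb, 7.01% for Hoxc and 37.5% for Hoxd. At P0 Hoxd made up 75.8% and Hoxc 13.4%, with 5.77% for Hoxa and 5.05% for Hoxb. At P20 Hoxd made up 58.6% and Hoxc 37.3%, with 1.98% for Hoxa and 2.07% for Hoxb. The biallelic means were similar in order, with Hoxd at 34.0%, 76.6% and 62.7% and Hoxc at 2.96%, 16.7% and 32.6% over the 3 stages. After E13.5 the Hoxd reads were mostly those of the Hoxd3 row and Hoxd8, and the Hoxc reads mostly those of Hoxc13. The cluster shares therefore restate those rows as well.

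**Figure D3:**
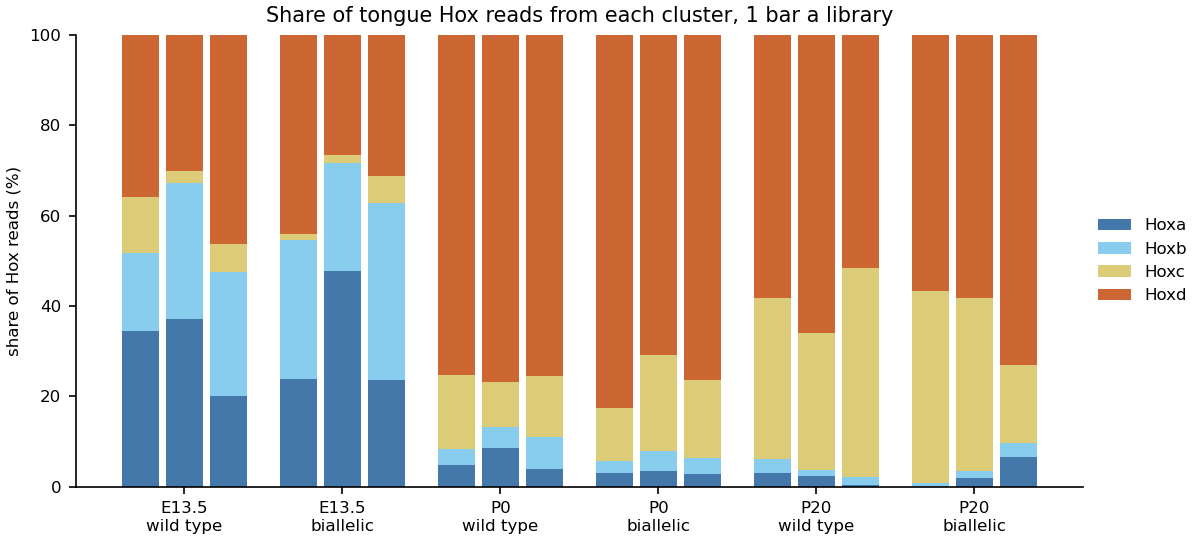
Share of Hox reads (%) from each of the 4 clusters, stacked to 100%, with 1 bar a tongue library grouped by stage and genotype. Hoxa and Hoxb fill much of the E13.5 bars, and Hoxd leads at P0 (70.9 to 82.5% of Hox reads) with Hoxc larger at P20. Most Hoxc reads at P20 were those of Hoxc13.

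Costal cells gave few Hox reads, from libraries smaller than those of tongue, and their leading genes differed from those of tongue after E13.5. In RPM the summed wild type level was 1.01 to 11.3 in costal cells and 3.47 to 7.04 in E13.5 tongue. The biallelic level was 0.203 to 3.05 and 5.54 to 7.79 RPM. Tissue, library method, aligner and table went together, so tongue and costal values are set side by side without a test, and what sets them apart cannot be told apart. Over 11 animals 207 reads fell on the 39 genes, 125 in wild type and 82 in biallelic animals, with 2 to 78 reads an animal. No gene had reads in every animal. No read fell on 17 genes, among them Hoxd8, Hoxd9 and Hoxc13, 3 of the leading tongue genes after E13.5, and the Hoxd3 row had 8 reads in all.

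The costal genes with the most reads came from groups 2 to 9. Hoxa5, which patterns the neck-to-thorax boundary and the airway, had 0, 8, 23, 0 and 0 reads in wild type animals 7 to 11 and 0, 4, 4, 0, 5 and 3 in biallelic animals 1 to 6. It was detected in 6 animals, more than any other Hox gene. The antisense gene Hoxaas3 overlaps Hoxa5, Hoxa6 and Hoxa7, and Hoxa5 and Hoxa6 also lie inside the span of Hoxa3. No source used here says how such overlaps were counted, so reads on these genes cannot be assigned to 1 gene with certainty. Hoxb2 had 19 reads in wild type animal 9, 3 in animal 10, and 12 and 5 in biallelic animals 2 and 3, and none in the other 7. Those 4 animals were also the only ones with reads on the antisense Hoxb3os (17, 2, 9 and 4 reads).

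Hoxa7, of a thoracic paralogue group, had 19 reads in wild type animal 9, 3 in animal 10, and 1 and 9 in biallelic animals 1 and 5. Hoxb7, its paralogue in the Hoxb cluster, had 11 reads in wild type animal 7, 1 in animal 10 and none in the biallelic animals. Hoxc9, which acts in the thorax and limb, had 10 reads, all in wild type animal 9. Hoxa6, also of a thoracic group, had 8 reads in wild type animal 8 and 1 in each of biallelic animals 3 and 4, and Hoxc6 had 2, 3 and 3 reads in wild type animals 7, 8 and 9 and 1 in biallelic animal 3. Most of these reads therefore lay in 1 or 2 animals a gene, and wild type animals 7, 8 and 9, which stood apart in the whole table, carried 113 of the 125 wild type reads. Amplified libraries of few cells without molecular identifiers can hold several reads of 1 molecule, so these counts are not counts of molecules.

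The remaining 15 costal genes with reads had at most 4 reads in any animal. Among them Hoxa2 had 10 reads in all, spread over 3 biallelic animals, and none in wild type. Summed over the clusters, Hoxa held 52.0% of the wild type costal reads and 58.5% of the biallelic, Hoxb 28.8% and 26.8%, Hoxc 17.6% and 3.66%, and Hoxd 1.6% and 11%. In wild type tongue at P0, for comparison, Hoxa and Hoxb each held under 6% of Hox reads by their means above. On all 39 rows, groups 1 to 5 held 57 costal reads, groups 6 to 8 54 and groups 9 to 13 14 in wild type, and 60, 16 and 6 in biallelic animals.

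**Figure D4:**
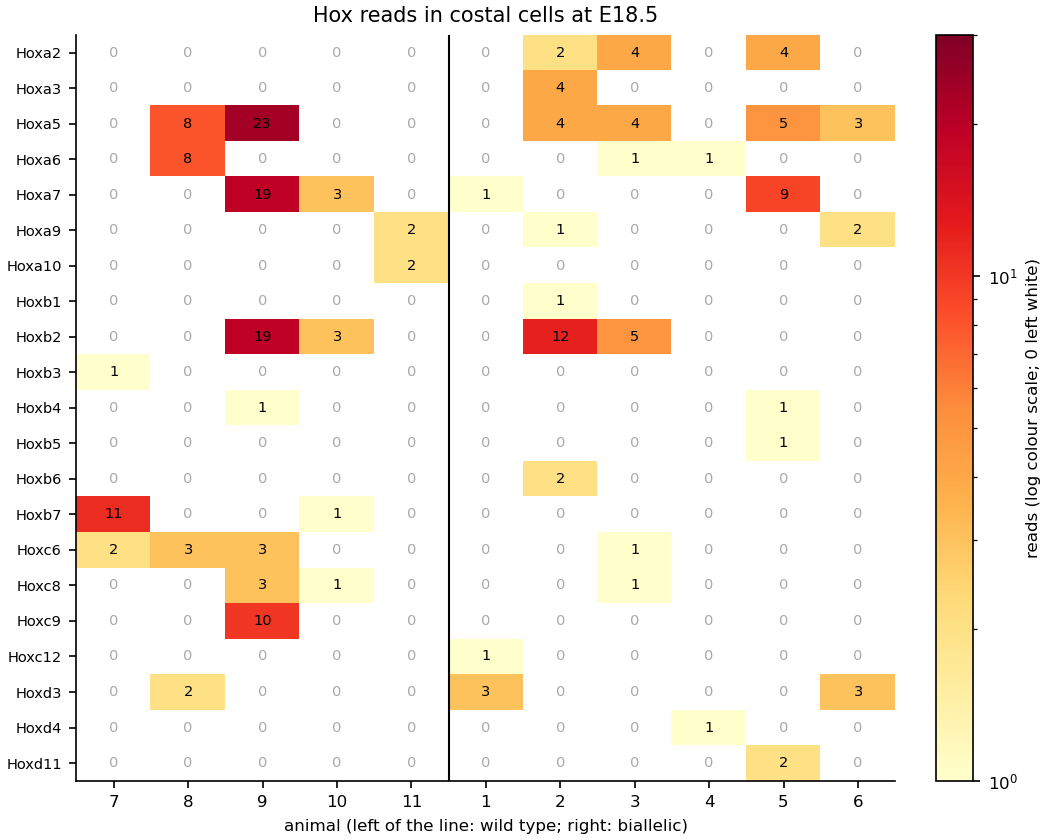
Reads on 21 of the Hox genes with any read (rows, by cluster and group) in each costal animal (columns; wild type left of the line, biallelic right), with the number in each cell and a log colour scale. Wild type animal 9 holds the highest count of the grid, 23 reads on Hoxa5, and most cells are 0.

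Summed over the 39 genes, the costal level was 3.82 ± 4.30 RPM in wild type (1.01 to 11.3, n = 5) and 1.24 ± 1.06 RPM in biallelic animals (0.203 to 3.05, n = 6). The ranges overlapped. Without animal 9 the wild type mean was 1.95 RPM, and without animals 7, 8 and 9 it was 1.19 RPM. The neutrophil and myeloid markers, at 272 to 2200 RPM in wild type and 207 to 408 RPM in biallelic animals, overlapped between the groups as well, and their part in the Hox sums was not tested.

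No Hox row passed the test for genotype in any table. With the 1 RPM limit, limma called 0% of 11869 genes in E13.5 tongue (386 at an unadjusted p under 0.05) and 0.016% of 12489 in P0 tongue (2 genes, neither a Hox row). It called 0% of 12693 genes in P20 tongue (286 unadjusted) and 0% of 11127 in costal cells (1298 unadjusted). With such a background the lack of a Hox call is no result about Hox genes. At E13.5 the Hoxd3 row differed by 0.37 and the Hoxa2 row by 0.64 on the log2 scale (biallelic minus wild type; limma adjusted p = 0.992 for both). At P0 Hoxd8 differed by −0.16 and the Hoxd3 row by −0.19 (limma adjusted p = 0.9998). At P20 Hoxd8 differed by 0.36, the Hoxd3 row by 0.04 and Hoxc13 by −0.31 (limma adjusted p = 1); without biallelic replicate 3, the library that stood apart, the Hoxc13 value was 0.20.

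At the 0.1 RPM limit the smallest p among Hox rows was that of the Hoxa2 row at P0, at 0.133 to 0.210 RPM in biallelic against 0.260 to 0.438 RPM in wild type libraries. The groups did not overlap, and the log2 fold change was −1.01 (SE 0.37; limma p = 0.0263, adjusted p = 0.9998). Hoxb4 at E13.5 did not overlap either, at 0.277 to 0.479 RPM in biallelic against 0.0846 to 0.153 RPM in wild type, with a log2 fold change of 1.75 (SE 0.75; limma p = 0.0396, adjusted p = 0.989). Hoxb2, which shares the cluster with Hoxb4, differed by 1.22 at E13.5 (limma p = 0.107). In costal cells only Hoxa5 qualified at this limit, with −1.08 (SE 0.95; limma adjusted p = 0.646).

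Whether a stage change differed between genotypes was tested as an interaction in the fit of 18 libraries at 0.1 RPM. Limma called 0% of 17243 genes for P0 against E13.5 (984 at an unadjusted p under 0.05) and 0% for P20 against P0 (243 unadjusted). Among Hox rows the smallest p belonged to Hoxb4, whose fall was larger in biallelic tongue by 2.37 on the log2 scale (difference −2.37, SE 0.76; limma p = 0.0066, adjusted p = 0.7275), followed by Hoxb2 (−2.16; limma p = 0.020, adjusted p = 0.823). The larger folds seen above for the anterior genes in biallelic tongue were thus not shown to differ from wild type.

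**Figure D5:**
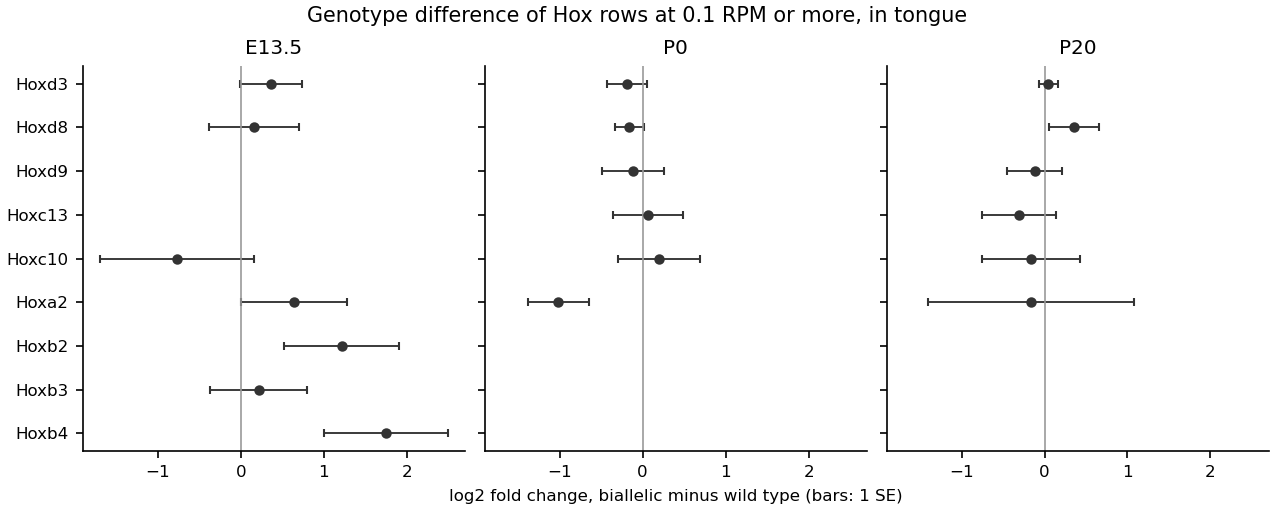
Log2 fold change of biallelic minus wild type (x axis) for 9 Hox rows where they reached 0.1 RPM in each tongue stage (panels), with bars of 1 SE; the line marks 0. Hoxb4 at E13.5 (1.75) and the Hoxa2 row at P0 (−1.01) lie farthest from 0 relative to their SE, and neither passed the adjusted threshold.

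HOX proteins bind DNA together with PBX, MEIS and PKNOX (PREP) partners. Among the partner genes Meis2 stood at 82.8 ± 13.2, 47.8 ± 12.9 and 48.1 ± 2.37 RPM in wild type tongue of the 3 stages (SD, n = 3), above the summed level of all Hox rows, and was near the floor in costal cells (0 to 1.53 RPM over both genotypes). Of 6 cofactors tested, 2 rose and 3 fell from E13.5 to P0 in wild type (median 0.02 on the log2 scale, against −0.04 for all genes tested, of which 37.9% rose and 39.9% fell). Pknox2 rose by 1.51 and Pbx3 by 0.58, while Meis3 changed by −1.12, Meis2 by −0.81 and Pknox1 by −0.33 (limma adjusted p 1.79e-05 to 0.0196). With libraries centred on their median, 3 rose and 2 fell. After P0 Pknox2 rose by 1.25 and Meis3 changed by −0.70, with 4 not called (limma adjusted p = 0.00082 and 0.00353; 31.7% of all genes rose and 14.9% fell).

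Retinoic acid and CDX proteins are known inducers of Hox genes. The 10 genes tested were those of retinoic acid, namely enzymes that make or degrade it and its receptors, and no Cdx gene reached the limit. Of these 10, 2 rose and 3 fell from E13.5 to P0 in wild type (median −0.23, against −0.04 for all genes), or 4 and 3 with libraries centred on their median, against the same 37.9% and 39.9% of all genes. Cyp26a1, which degrades retinoic acid, stood at 16.3 ± 4.98 RPM at E13.5 and 0.0993 ± 0.110 RPM at P0 in wild type tongue (limma adjusted p = 2.38e-07). Cyp26c1, of the same enzyme family, changed by −5.94 on the log2 scale (limma adjusted p = 1.73e-06), and Aldh1a2, which makes retinoic acid in the embryo, by −2.10 (adjusted p = 0.00296). Aldh1a1, another such enzyme, rose by 1.74 and the receptor gene Rarb by 1.16 (limma adjusted p = 0.000108 and 0.0105). Cyp26a1 and Cyp26c1 reached the limit of 1 RPM at E13.5 and not at P0, and Aldh1a1 at P0 and not at E13.5. The direction of the calls on these genes was therefore partly fixed by the limit. By P20 Aldh1a1 rose by 2.76 and Rarg by 1.57, while Aldh1a3 changed by −2.05 (limma adjusted p 6.31e-06 to 7.85e-05), with 7 not called, against 31.7% higher and 14.9% lower over all genes.

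Polycomb proteins hold Hox clusters silent. Of 16 genes tested, which were 15 Polycomb genes and the histone demethylase gene Kdm6b, 2 rose and 9 fell from E13.5 to P0 in each genotype, against 37.9% and 39.9% of all genes in wild type and 39.7% and 37.6% in biallelic tongue (wild type median −0.80, against −0.04 for all genes). Cbx2, a Polycomb reader of methylated histone, fell from 29.9 ± 5.12 to 2.65 ± 0.509 RPM in wild type (log2 fold change −3.50, limma adjusted p = 3.19e-11). Cbx8 changed by −2.66, the methyltransferase gene Ezh2 by −1.93, Bmi1 by −1.69, Rnf2 by −1.10, Phc2 by −0.99, Ring1 by −0.91, Phc1 by −0.87 and Eed by −0.74, while Ezh1 rose by 0.59 and Jarid2 by 0.48 (limma adjusted p 7.44e-08 to 0.00751). Between P0 and P20, 9 rose and 2 fell in wild type, against 31.7% and 14.9% of all genes (median 0.55, against 0.22), or 7 and 2 with libraries centred on their median. Cbx7 rose the most of these, by 1.84, from 1.92 ± 0.577 to 6.67 ± 0.461 RPM (limma adjusted p = 1.86e-05), and Ezh1 rose by 0.84 (adjusted p = 0.000367).

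The genes that flank the clusters served as a local comparison. Of 6 tested, 2 rose (Skap2 by 0.66 and Lnp by 0.63) and 2 fell (Hnrnpa1 with −1.70 and Mtx2 with −0.43) from E13.5 to P0 in wild type (limma adjusted p 8.36e-09 to 0.015; median 0.28, against −0.04 for all genes), against 37.9% and 39.9% of all genes, or 3 and 1 with libraries centred on their median. Mtx2 and Lnp flank the Hoxd cluster, and they moved in opposite directions while Hoxd8 and the Hoxd3 row rose. No gene of these 4 lists passed the test for genotype in any table.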

How the data were processed

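Whole tongues and sorted costal cells were measured by RNA-seq. The authors deposited log2 RPM values per gene in 4 tables. Per the submitters' processing notes, reads were trimmed with Trim Galore 0.4.2 and mapped to GRCm38 with TopHat2 2.1.0 or HISAT2; no source used here names the counter or how it treated strand. A gene with 0 reads is deposited as 0.9 reads. All values came out as whole reads within 0.05, which gave each library's total, and levels are RPM from those reads. The 33 labelled samples fill 29 columns, since 4 biallelic costal animals with 2 labelled libraries have 1 column each. The labels name no litter, so p-values measure the spread between these samples. In a group with 0 reads throughout, that spread is only one of library depth.

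The members and gene lists were chosen with earlier results of these data known. Named are all Hox genes past the threshold, or the 2 of smallest p, values in every library for rows reaching a mean of 1 RPM, and list genes past the threshold. Results on some genes are not reported here, and counts of called Hox rows and of list genes leave them out. Limma 3.58.1 (R 4.3.3, mean-variance trend) was run on log2 RPM of genes at 1 RPM or more in 3 tongue libraries or 5 costal libraries. It was tested on simulated data. A limit of 0.1 RPM and the interaction were added after seeing the data. Permutation tests planned for summed levels and shares are not reported, since a p over chosen members supports nothing. Alternatives were voom, log2(RPM + 1), median centring, filters, a replicate block and leaving out each library. Counting intervals are exact, at 95%. Python 3.11.15 with pandas 2.3.3 and scipy 1.17.1 was used. Promoter windows came from RefSeq tables.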

Additional observations from a re-analysis of the deposited data

Results flagged for a closer look

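In costal cells 10 groups of animals were examined for an animal far from the others, and 6 had one; chance flags about 1 in 20 groups of evenly spread values, a rate that does not carry over to reads that are mostly 0, where 1 animal with reads is enough. Wild type animal 9 was highest for Hoxa7 at 2.75 RPM (19 reads, the next animal at 0.38 RPM), for Hoxb2 at 2.75 RPM (19 reads, next 0.38 RPM) and for Hoxc9 at 1.45 RPM (10 reads, the others at 0), and its summed Hox level of 11.3 RPM was far above the other wild type animals. Wild type animal 7 was highest for Hoxb7 at 1.4 RPM (11 reads, next 0.127 RPM). Biallelic animal 5 was highest for Hoxa7 at 1.25 RPM (9 reads, next 0.0655 RPM). The 5 gene values rest on 9 to 19 reads each.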

How the results depend on the processing

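Of the values for single rows, 535 kept direction and side of the threshold, 18 lost a call, 2 gained one and 32 changed sign, all on values that were called neither before nor after. Most sign changes came from leaving out 1 library. By genotype at E13.5 the Hoxa2 row came to −0.02 (without wild type 3; other settings up to 1.23), and without wild type 1 Hoxd8 came to −0.14 and Hoxb3 to −0.19. By genotype at P0, leaving out wild type 2 gave 0.11 for Hoxd9 and −0.27 for Hoxc13, leaving out biallelic 1 gave 0.12 for Hoxd9, leaving out biallelic 2 gave −0.18 for Hoxc13 and −0.17 for the Hoxc10 row, and leaving out biallelic 3 gave −0.1 for Hoxc13. By genotype at P20, the Hoxa2 row ran from −1.22 to 1.2 (without biallelic 1; 0.42 without wild type 1), Hoxc13 from −0.6 to 0.2 (without biallelic 3), the Hoxd3 row from −0.01 (without wild type 1) to 0.09, and the Hoxc10 row came to 0.06 (without wild type 1) and 0.29 (without biallelic 1) and Hoxd9 to 0.1 (without wild type 2). From P0 to P20 in wild type, the Hoxc10 row came to −0.1 with median centring, −0.01 without P0 wild type 2, −0.1 without P20 wild type 1 and −0.03 without P20 wild type 2, and Hoxb3 to 0.16 without P20 wild type 2. In biallelic tongue over that interval the Hoxa2 row ran from −1.67 to 0.75 (without P20 biallelic 1) and came to 0.03 with log2(RPM + 1). Hoxb3 came to −0.24 with voom, −0.14 without P0 biallelic 1 and −0.42 without P20 biallelic 3, and the Hoxc10 row to 0.13 without P0 biallelic 2 and 0.22 without P20 biallelic 1. From E13.5 to P0 in biallelic tongue the Hoxc10 row came to −0.08 with voom, −0.34 without E13.5 biallelic 1, −0.23 without E13.5 biallelic 2 and −0.34 without P0 biallelic 2. The cause was not tested. Leaving out each library, the Hox rows called from P0 to P20 in wild type numbered 1 to 2, and rows under 1 RPM numbered 0. Log2(RPM + 1) shrank the Hoxc13 rise to P0 to 0.83 in wild type, by its construction. By construction the summed level also moved: per kb of exons it was 0.93, 1.72 and 2.68 in wild type and 1.34, 1.54 and 2.58 in biallelic tongue at E13.5, P0 and P20, and per reads on listed genes, scaled as RPM, 12.9, 20.5 and 26.3 in wild type and 17.8, 17.7 and 26.1 in biallelic tongue. The share of groups 6 to 13 per kb of exons was 29.0%, 70.3% and 73.4% in wild type and 25.7%, 71.8% and 71.6% in biallelic tongue. With groups 5 to 13 the E13.5 wild type share was 26.7%, and with groups 7 to 13 it was 15.2%, or 12.6% in biallelic tongue. A filter of 5 RPM left too few Hox rows to give values.

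The replicate numbers did not pair the samples: deviations of same-numbered libraries correlated at 0.159, 0.042 and 0.137 at E13.5, −0.343, −0.486 and 0.362 at P0 and −0.314, −0.288 and −0.647 at P20. With the replicate number as a block, the Hoxd3 row from P0 to P20 in wild type (0.59, limma adjusted p = 0.0601) was the 1 Hox call that changed. Depth limits the costal genes most, since 3 reads there are up to 1.0209 RPM.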

Other observations

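The listed antisense and intergenic transcripts of the clusters besides Hoxb3os had few reads: Hotair had 1 read in E13.5 wild type replicate 1, in wild type costal animal 11 and in biallelic costal animal 6, and Hoxa11as had at most 2 in any library.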
